A study of Mus musculus with 26 samples.

Results

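Amacrine and horizontal cells are the inhibitory interneurons of the retina. Amacrine cells act in the inner retina and horizontal cells at the photoreceptor synapse. The AP-2 transcription factors Tfap2a and Tfap2b mark both types soon after they leave the cell cycle, the basic helix-loop-helix factor Ptf1a commits precursors to these fates, Prox1 and Onecut2 act in horizontal cells and some other neurons, and Meis2 is a homeodomain factor of progenitors and of GABA-releasing amacrine cells. Gad1 and Gad2 make the transmitter GABA, and Slc6a9 carries glycine back into glycine-releasing amacrine cells. These 9 genes, 6 for transcription factors and 3 for transmitter use, were taken by name from 18193 genes measured, with all 22 probe sets annotated to them alone.

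The mice carried floxed Notch1 on both chromosomes in a C57BL/6 background, and individual cells of their retinas were profiled on Affymetrix mouse arrays, with 1 cell per array. Pups were electroporated in vivo at P0 and cells were picked by hand for GFP at P3. The 13 WT cells received CAG:GFP, so WT here is a cell with intact floxed alleles, and the 13 N1-CKO cells received CAG:Cre with CALNL-GFP, a reporter that Cre switches on. CAG is active in most cell types, so the promoter selects no cell type. Which cells electroporation at P0 reached is not given, so the cells may not sample all types evenly. No animal or litter is named for any cell. Each group therefore stands as 1 sample, and no test between the groups was made.

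Detection was set at the 90th percentile of each array, a signal of 245 to 2409. A detected gene is thus among the 4504 brightest probe sets of a cell, and a gene below that line may still be expressed. For each gene the brightest probe set was used, and other probe sets are given beside it. Notch1, the targeted gene, was detected in 10 of 13 WT and 8 of 13 N1-CKO cells (log2 means 12.00 ± 3.06 and 10.35 ± 4.21), so its transcript does not separate the labelled groups, and whether the probe set lies in the deleted part was not checked here. The group names below are those of the labels. As a check of the labelled tissue, the precursor factor Neurod1 was detected in 22 of 26 cells and the eye-field gene Pax6 in 19. Of the lists for microglia, vessels, astrocytes and pigment epithelium, 5, 4, 1 and 4 genes were measured. A cell had at most 1 detected gene of each list, a limit that the astrocyte list could not exceed. Kdr of the vessel list was detected in 12 cells, 9 WT and 3 N1-CKO, so these lists are a weak check. The 3' to 5' signal ratio of Gapdh, which grows when RNA or cDNA is short, had medians of 1.79 in WT (1.40 to 3.26) and 2.67 in N1-CKO cells (1.46 to 245). It exceeded 3 in 2 WT cells, among them WT cell 7, and in 5 N1-CKO cells, among them cells 12 and 13. These 3 cells carry many of the genes described here, so counts are also given for the 19 cells whose ratio was 3 or less.

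**Figure D1:**
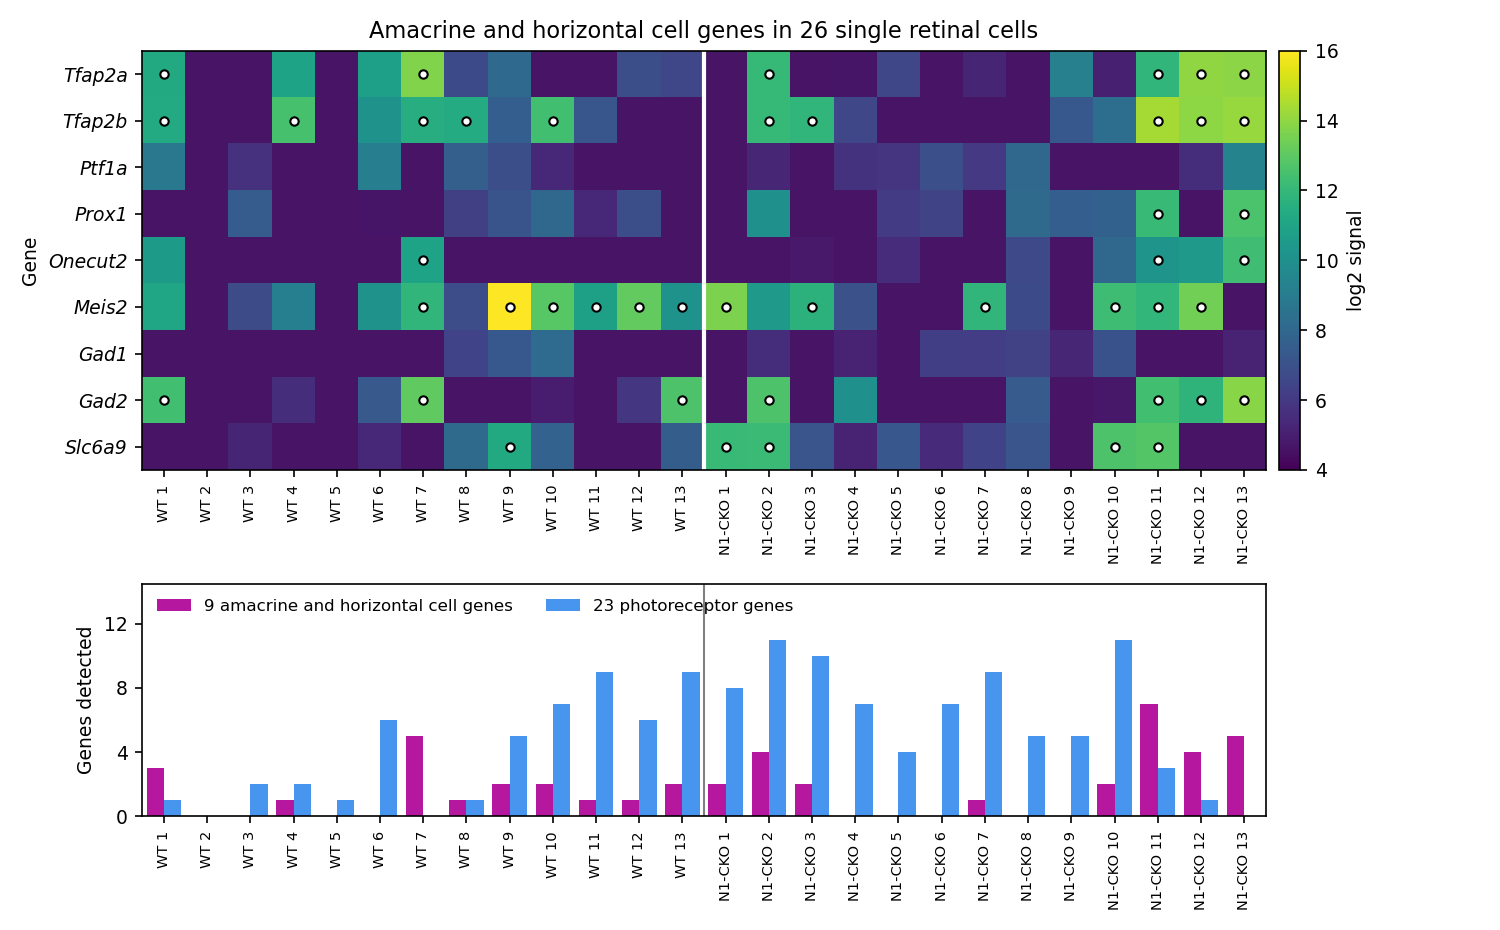
Upper panel: log2 signal (colour) of each of the 9 genes (rows) in 26 cells (columns, WT left and N1-CKO right), with a white dot where the gene was detected. Lower panel: number of the 9 genes and of 23 photoreceptor genes detected in each cell. N1-CKO cell 11 has 7 of the 9 genes, and WT cell 7 and N1-CKO cell 13 have 5 each beside 0 photoreceptor genes.

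Detection was uneven over cells and genes. Of the 9 genes, 7 were detected in at least 1 cell, against 58.1% of all genes measured. Meis2 was detected in 12 of 26 cells, Tfap2b in 10, Gad2 in 7, Tfap2a in 6, Slc6a9 in 5, Onecut2 in 3 and Prox1 in 2. Ptf1a and Gad1 were detected in 0 cells, which for each group of 13 allows a share of up to 24.7% (exact 95% Clopper-Pearson interval, counting error only). At least 1 of the 9 genes was detected in 17 cells, 9 WT and 8 N1-CKO, and at least 2 in 12 cells, 5 WT (38.5%, interval 13.9 to 68.4) and 7 N1-CKO (53.8%, interval 25.1 to 80.8). At least 3 were detected in 6 cells: WT cells 1 and 7 and N1-CKO cells 2, 11, 12 and 13.

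On the main probe sets, all 6 cells with Tfap2a also carried Tfap2b and Gad2, which were detected in 4 and 1 further cells. Tfap2a reached signals of 2477 in WT cell 1, 13739 in WT cell 7, 4229 in N1-CKO cell 2, 3769 in N1-CKO cell 11, 16439 in N1-CKO cell 12 and 15463 in N1-CKO cell 13. Over all cells it ranged from 2.56 to 13739 (median 102) in WT and from 0.766 to 16439 (median 37.7) in N1-CKO cells. The groups overlapped, though N1-CKO cells 12 and 13 lay above all WT cells. WT cells 4 and 6 and N1-CKO cell 9, with 2004, 1753 and 604, lay just below the detection lines of their arrays, 2120, 2251 and 644. Gad2 read 47.9, 162 and 15.1 in them, below detection. Tfap2b was detected in all 6 of the cells with Tfap2a, at 2555 and 2837 in WT cells 1 and 7 and at 4163, 21569, 15945 and 17931 in N1-CKO cells 2, 11, 12 and 13. It was also detected, without Tfap2a, in WT cells 4 (5824), 8 (2698) and 10 (5258) and in N1-CKO cell 3 (3834). On the main probe sets Tfap2b was thus found more widely than Tfap2a, and 0 cells carried Tfap2a without Tfap2b.

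Gad2 was detected in those same 6 cells and in WT cell 13. Its signals were 5351, 8667 and 6323 in WT cells 1, 7 and 13, and 6400, 5203, 3556 and 14940 in N1-CKO cells 2, 11, 12 and 13. The highest signal below detection was 1049, in N1-CKO cell 4, and the medians of the groups were 31.0 in WT and 27.4 in N1-CKO cells. On this probe set no signal thus lay between 1049 and 3556, while the other Gad2 probe set read 1567 in WT cell 1, below detection. The other GABA-synthesising enzyme gene, Gad1, stayed at or below 296 on its brighter probe set and at or below 455 on the other, in all 26 cells, below the detection line of the respective array. The 6 cells with Tfap2a, Tfap2b and Gad2 comprised 2 of 13 WT cells (15.4%, interval 1.92 to 45.4) and 4 of 13 N1-CKO cells (30.8%, interval 9.09 to 61.4).

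Genes detected in as many cells can be read beside these. Of 612 genes detected in 6 cells, 0.817% had at least 6 of those cells in common with Tfap2b, and 0.327% had at least 6 in common with Gad2. Of 523 genes detected in 7 cells, 1.72% shared at least 6 with Tfap2b. On the log2 scale the signals of Tfap2a and Gad2 correlated over the 26 cells with Pearson r of 0.74 and Spearman rho of 0.65, those of Tfap2a and Tfap2b with 0.73 and 0.63, and those of Tfap2b and Gad2 with 0.52 and 0.51. Among the 6129 genes ranked for likeness to Tfap2a, Gad2 stood at rank 7 and Tfap2b at rank 9. Of the 19 cells with a Gapdh ratio of 3 or less, 3 carried Tfap2a (WT cell 1 and N1-CKO cells 2 and 11), and all 3 of them carried Tfap2b and Gad2. By 18S signal, 5 of the 6 cells lay in the set of 16 arrays with low 18S RNA and 1, N1-CKO cell 11, in the set of 10 with high 18S RNA. With detection at the 95th percentile of each array, only 1 cell carried all 3 genes.

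**Figure D2:**
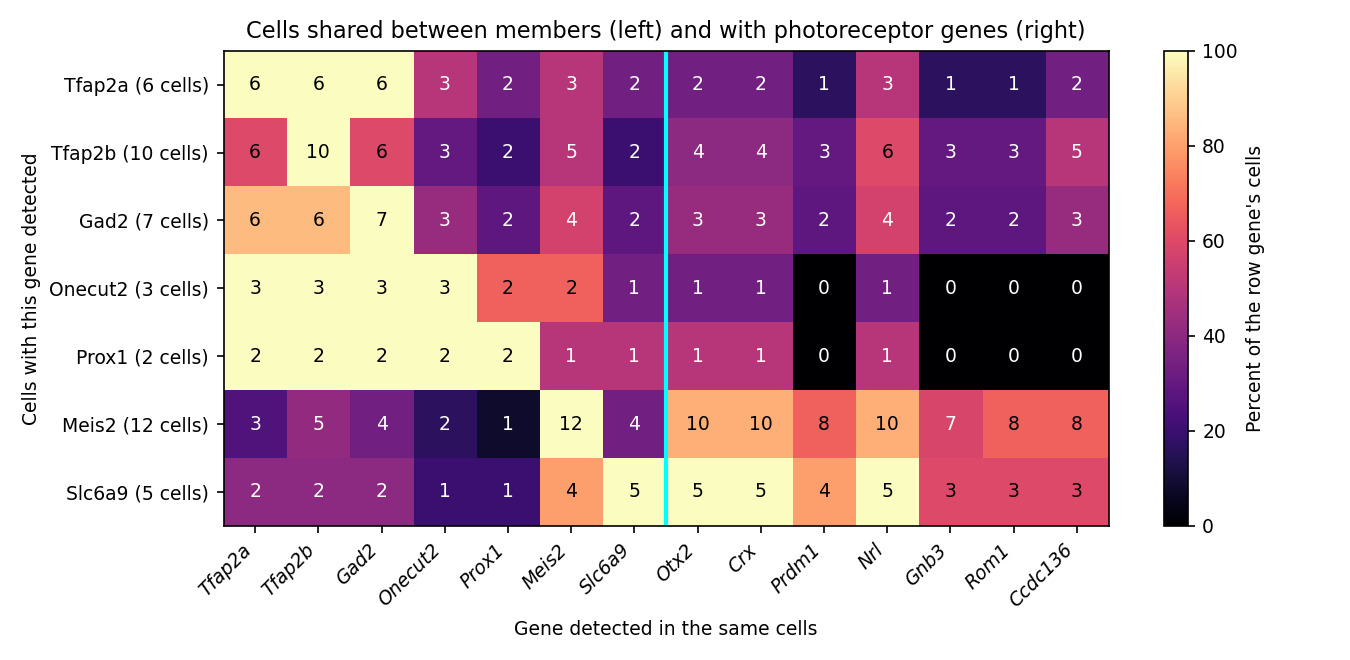
Number of cells (digits) in which the row gene was detected together with the column gene, for the 7 detected genes of the set (left of the line) and 7 photoreceptor genes (right). Colour gives the percent of the row gene's cells. On the main probe sets, all 6 cells with Tfap2a carry Tfap2b and Gad2. Meis2 and Slc6a9 share most of their cells with Otx2, Crx and Nrl, which were detected in 18, 16 and 18 of 26 cells.

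The stretches before the transcription starts of Tfap2a, Tfap2b, Gad2 and Gad1 are shown because the first 3 genes shared 6 cells and the last was not detected. Each is 250 bases, 5′ to 3′ on the strand of the gene, from RefSeq's GRCm38.p6 annotation. They lie at chr13:40734921-40735170 (minus strand), chr1:19211804-19212053 (plus), chr2:22622077-22622326 (plus) and chr2:70561879-70562128 (plus), and all 4 fall inside the span annotated to the gene. For Tfap2a, the upstream of its 2 starts in the table is shown. Capitals mark matches, on either strand, to the AP-2 motif GCCNNNGGC, the OTX and CRX motif TAATCC, the E-box CANNTG of basic helix-loop-helix factors and the homeodomain motif TAATTA.
Tfap2a: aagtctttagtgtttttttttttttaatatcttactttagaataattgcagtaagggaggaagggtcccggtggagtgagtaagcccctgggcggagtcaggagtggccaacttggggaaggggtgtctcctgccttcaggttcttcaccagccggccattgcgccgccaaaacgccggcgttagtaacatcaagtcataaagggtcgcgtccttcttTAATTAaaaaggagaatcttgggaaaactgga
Tfap2b: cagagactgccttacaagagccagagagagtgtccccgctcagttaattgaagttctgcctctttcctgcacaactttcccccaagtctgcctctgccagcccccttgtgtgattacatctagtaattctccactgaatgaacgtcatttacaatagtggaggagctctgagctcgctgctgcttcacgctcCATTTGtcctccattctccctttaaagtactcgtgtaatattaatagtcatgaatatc
Gad2: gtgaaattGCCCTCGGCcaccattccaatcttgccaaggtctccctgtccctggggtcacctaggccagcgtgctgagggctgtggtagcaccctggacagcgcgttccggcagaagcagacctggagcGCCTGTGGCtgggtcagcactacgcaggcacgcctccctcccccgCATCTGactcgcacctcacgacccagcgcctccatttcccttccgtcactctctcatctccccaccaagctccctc
Gad1: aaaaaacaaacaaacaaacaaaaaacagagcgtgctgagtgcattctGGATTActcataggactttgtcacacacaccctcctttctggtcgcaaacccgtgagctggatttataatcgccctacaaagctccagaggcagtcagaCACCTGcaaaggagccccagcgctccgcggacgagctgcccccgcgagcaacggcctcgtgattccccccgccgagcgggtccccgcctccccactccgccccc

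The Gad2 stretch holds 2 AP-2 matches, GCCCTCGGC and GCCTGTGGC, which begin at -242 and -121 relative to the start, and 1 E-box, CATCTG. Of 32851 stretches of this length before RefSeq starts, 13.7% hold at least 1 AP-2 match. The Gad1 stretch holds 0 AP-2 matches, 1 match to the OTX and CRX motif on the other strand (6.25% of stretches hold one) and 1 E-box, which 66.2% of stretches hold. The Tfap2b stretch holds 1 E-box, CATTTG, and the Tfap2a stretch 1 TAATTA (4.84% of stretches). Of 12 stretches for 8 of the 9 genes, the Gad2 stretch was the only one with an AP-2 match. Also searched were GTGGGAA for RBPJ, the DNA-binding partner of Notch (5.42% of stretches), TATAAA (12.4%), ATCGAT for ONECUT factors (0.728%) and TGACAG for MEIS factors (15.9%). The 12 stretches held 0 matches to the RBPJ, ONECUT and MEIS letters. TATAAA matched the Gad1 stretch on the other strand (beginning at -141, not in capitals), a Prox1 stretch and the Meis2 stretch. A match is a run of letters, not a shown binding site.

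On their main probe sets, Onecut2 and Prox1 were detected only in cells that carried both AP-2 genes and Gad2. Onecut2 was detected in WT cell 7 (2006), N1-CKO cell 11 (1178) and N1-CKO cell 13 (5138). WT cell 1 (1497) and N1-CKO cell 12 (1442) came close to the detection lines of their arrays, 2233 and 1647, so that 5 of the 6 cells with Tfap2a had an Onecut2 signal above 1000, while the medians of the groups were 4.21 and 28.3. Of 931 genes detected in 3 cells, 1.83% had all 3 in common with Tfap2a and 2.36% with Gad2. Prox1 was detected in N1-CKO cells 11 (4486) and 13 (6229), both with Onecut2, and its next highest signal was 1047, in N1-CKO cell 2. In WT cells Prox1 reached at most 268. Of 1219 genes detected in 2 cells, 1.48% had both in common with Onecut2. Ptf1a, the early commitment factor, had its highest signals in N1-CKO cell 13 (658) and WT cells 6 (561) and 1 (454), each below detection.

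The other probe sets of these genes did not all follow the main ones. A further Tfap2a probe set (r = 0.93 with the main one) was detected in WT cell 7 and N1-CKO cells 12 and 13, another (r = -0.06) in N1-CKO cell 9 alone, and a Tfap2b one (r = 0.40) in N1-CKO cells 3, 11 and 12. The other Gad2 probe set (r = -0.10) was detected in WT cell 9 alone, a cell at background on the main one. The remaining Onecut2 probe sets were detected in WT cell 1 and N1-CKO cell 8, and in N1-CKO cell 5, and another Prox1 probe set in WT cell 9. When any probe set counted, 13 cells carried at least 2 of the 9 genes, and the cells with Tfap2a, Tfap2b and Gad2 numbered 6 as before. N1-CKO cell 9 then also carried Tfap2a (810, line 644), without Tfap2b (157 and 13.3) or Gad2 (15.1 and 81.1) on either of their probe sets.

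Meis2 had a different distribution. Of its 12 detected cells 6 were WT and 6 N1-CKO, with signals from 1144 in WT cell 13 to 68970 in WT cell 9, and from 3359 in N1-CKO cell 3 to 12595 in N1-CKO cell 1. Its group medians were 1144 and 1400, and the groups overlapped except for WT cell 9, which lay above all N1-CKO cells. Of its 12 cells, 3 carried Tfap2a, 5 Tfap2b and 4 Gad2, and genes detected in as many cells as Gad2 shared at least 4 with Meis2 in 34.6% of cases and those detected in as many as Tfap2b at least 5 in 48.9%, so these overlaps are near the background. Of its other probe sets, those with r = 0.95 and 0.73 to the main one were detected in 6 and 8 cells, all among the 12. The remaining one (r = 0.22) was detected in 6 cells, 4 of them among the 12, and in N1-CKO cells 6 and 8, at 15806 and 28889, where the main probe set read 2.36 and 103. Without Meis2, an alternative chosen after seeing the data, 6 cells in place of 12 carried at least 2 genes of the set.

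Slc6a9, the glycine transporter gene, was detected in WT cell 9 (2515) and in N1-CKO cells 1 (4404), 2 (4607), 10 (6338) and 11 (7091). The highest undetected signal was 284, so that on this probe set no signal lay between 284 and 2515. A second probe set was detected in WT cell 9 (1513) and N1-CKO cell 10 (1822) only. Slc6a9 and Gad2 shared 2 cells, N1-CKO cells 2 and 11. Of 675 genes detected in 5 cells, 42.2% shared at least 2 with Gad2 and 62.2% at least 2 with Tfap2b. Slc6a9 shared 4 of its 5 cells with Meis2, which 13.2% of such genes did.

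Transcription factors and transmitter genes were thus detected together in 10 cells, 4 WT and 6 N1-CKO. A transcription factor without a transmitter gene was found in 7 cells, 5 WT and 2 N1-CKO, and a transmitter gene without any of the factors in 0 cells. The 10 cells fall apart by gene. In 6 of them Gad2 was detected with both AP-2 genes, and in the other 4 (WT cells 9 and 13, N1-CKO cells 1 and 10) Meis2 was the only factor, with Slc6a9 in 3 and Gad2 in WT cell 13. Without Meis2 the count was 6, 2 WT and 4 N1-CKO. Each of the 17 cells, of 26, with any of the 9 genes carried a factor, and no background share was computed for these joint counts. Of genes detected in as many cells as Slc6a9 and Gad2, 13.2% and 34.6% shared at least as many cells with Meis2.

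Photoreceptor genes overlapped the genes of the set to differing degrees. Of 23 photoreceptor genes measured, a cell had a median of 5 detected (0 to 11). Of the 6 cells with Tfap2a, WT cell 7 and N1-CKO cell 13 had 0, WT cell 1 and N1-CKO cell 12 had 1 each, N1-CKO cell 11 had 3, and N1-CKO cell 2 had 11, the highest count of any cell, shared with N1-CKO cell 10. Otx2, the homeobox gene required for photoreceptor fate, was detected in 18 cells. Its signal was 6.92 in WT cell 7, 1.98 in N1-CKO cell 12, 33.0 in N1-CKO cell 13 and 644 in WT cell 1, all below detection, and 6090 and 4933 in N1-CKO cells 2 and 11. Crx, which activates photoreceptor genes, read 1939 in WT cell 1, below its line of 2233, and 0.742, 0.466 and 14.7 in WT cell 7 and N1-CKO cells 12 and 13, but 11814 and 8510 in N1-CKO cells 2 and 11. Nrl, the rod-determining factor, was detected in WT cell 1 (2992) and N1-CKO cells 2 (24337) and 11 (7693). For Otx2, Crx and Nrl the separation was therefore complete in 3 of the 6 cells, partial in WT cell 1 and absent in N1-CKO cells 2 and 11. In N1-CKO cell 2 Tfap2a, Tfap2b, Gad2 and Slc6a9 were detected beside Otx2, Crx, Nrl and Prdm1 (3363), a repressor that keeps photoreceptor precursors from becoming bipolar cells.

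Counted gene by gene, Tfap2b and Otx2 shared 4 of the 10 cells with Tfap2b, and 3.26% of genes detected in as many cells shared at most 4. Tfap2a shared 2 of its 6 cells with Otx2 (8.99% of such genes shared at most 2) and 1 with Prdm1 (8.50%). Tfap2b shared 3 with Prdm1 (9.24%). With Crx and Nrl, Tfap2a shared 2 and 3 cells (19.9% and 31.5%) and Tfap2b 4 and 6 (17.1% and 37.0%), nearer to the background, as were the 3 cells that Tfap2b shared with Rom1 (53.8%). Tfap2a shared 1 cell each with the photoreceptor genes Sag (68.5%), Pde6g (80.9%), Rxrg (81.9%), Rom1 (33.2%) and Gnb3 (10.5%). It shared 2 with Ccdc136 (11.6%) and 0 with Gngt2 (29.1%). Tfap2b shared 2 with Sag (67.1%), 2 with Pde6g (86.1%) and 1 with Rxrg (50.5%). It shared 3 with Gnb3 (13.04%), 5 with Ccdc136 (22.6%) and 0 with Gngt2 (7.07%). Gad2 shared 3 of 7 with Otx2 (16.3%) and 2 with Prdm1 (22.2%), and Onecut2 1 of 3 with Otx2 (20.7%). Gad2 also shared 2 with Gnb3 (21.99%), 3 with Ccdc136 (24.3%), 3 with Crx (32.5%) and 4 with Nrl (43.4%). With Rom1, Sag, Pde6g, Gngt2 and Rxrg it shared at least the median of genes detected in as many cells (58.5% to 88.5%). With Otx2, the counts for Gad2 and Onecut2 lie closer to the background than that of Tfap2b. Slc6a9 shared all 5 of its cells with Otx2 (17.3% of genes detected in 5 cells shared at least 5) and with Nrl (13.3%). Otx2 and Nrl were each detected in 18 of 26 cells, and these shares are near that of Gad2 with Otx2. Meis2 shared 10 of 12 with Otx2 (12.9%), also near that share, and 8 with Rom1, a rod outer segment gene (1.17%). Its other counts are set beside the median of genes detected in as many cells. They were 10 with Crx (median 7), 10 with Nrl (8), 8 with Prdm1 (6) and 3 each with Sag, Gngt2 and Rxrg (2). With Gnb3 they were 7 (6), with Ccdc136 8 (8) and with Pde6g 2 (2), at or near the background.

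On the log2 scale the mean signal of the 23 photoreceptor genes in a cell correlated with that of Tfap2a at r = -0.52, of Onecut2 at -0.47, of Gad2 at -0.38 and of Tfap2b at -0.28 over 26 cells. For Slc6a9 it was 0.44, for Meis2 0.29 and for Prox1 0.06. Over 6119 genes detected in at least 4 cells the median of this r was -0.03, with the central 95% from -0.45 to 0.46, and 1.03% of them were below Tfap2a and 96.9% below Slc6a9. Spearman's rho was -0.45 for Tfap2a, -0.38 for Onecut2, -0.31 for Gad2 and 0.49 for Slc6a9. Within WT cells r was -0.45 for Tfap2a, -0.21 for Gad2 and 0.35 for Slc6a9, and within N1-CKO cells -0.63, -0.63 and 0.42. For these the central 95% of genes ran from -0.62 to 0.62 in WT and from -0.59 to 0.59 in N1-CKO cells. In WT cells 10.4% of genes were below Tfap2a, 33.3% below Gad2 and 87.7% below Slc6a9, and in N1-CKO cells 1.44%, 1.41% and 89.9%. The points share array, amplification and scaling, and these values are descriptions without a test. Over the 19 cells with a Gapdh ratio of 3 or less, r was -0.30 for Tfap2a, -0.11 for Gad2 and -0.12 for Onecut2, with 18.8% of genes below Tfap2a, and 0.35 for Slc6a9. WT cell 7 and N1-CKO cells 12 and 13, with ratios of 3.26, 30.3 and 3.43, had 0, 1 and 0 photoreceptor genes detected, while WT cell 1, with a ratio of 2.04, also had 1, and the part of the ratio in this result was not tested. For the high and low 18S sets r was -0.56 and -0.46 for Tfap2a, -0.47 and -0.20 for Gad2, -0.08 and -0.66 for Onecut2, and -0.08 and 0.67 for Slc6a9. There the central 95% of genes ran from -0.62 to 0.67 in the high and from -0.53 to 0.55 in the low set. Of these values, only those of Onecut2 and Slc6a9 in the low set lay outside. The mean over all 9 genes, which pools genes of opposite sign, had r = -0.20, but 0.090 over those 19 cells and -0.0055 when all probe sets were averaged.

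**Figure D3:**
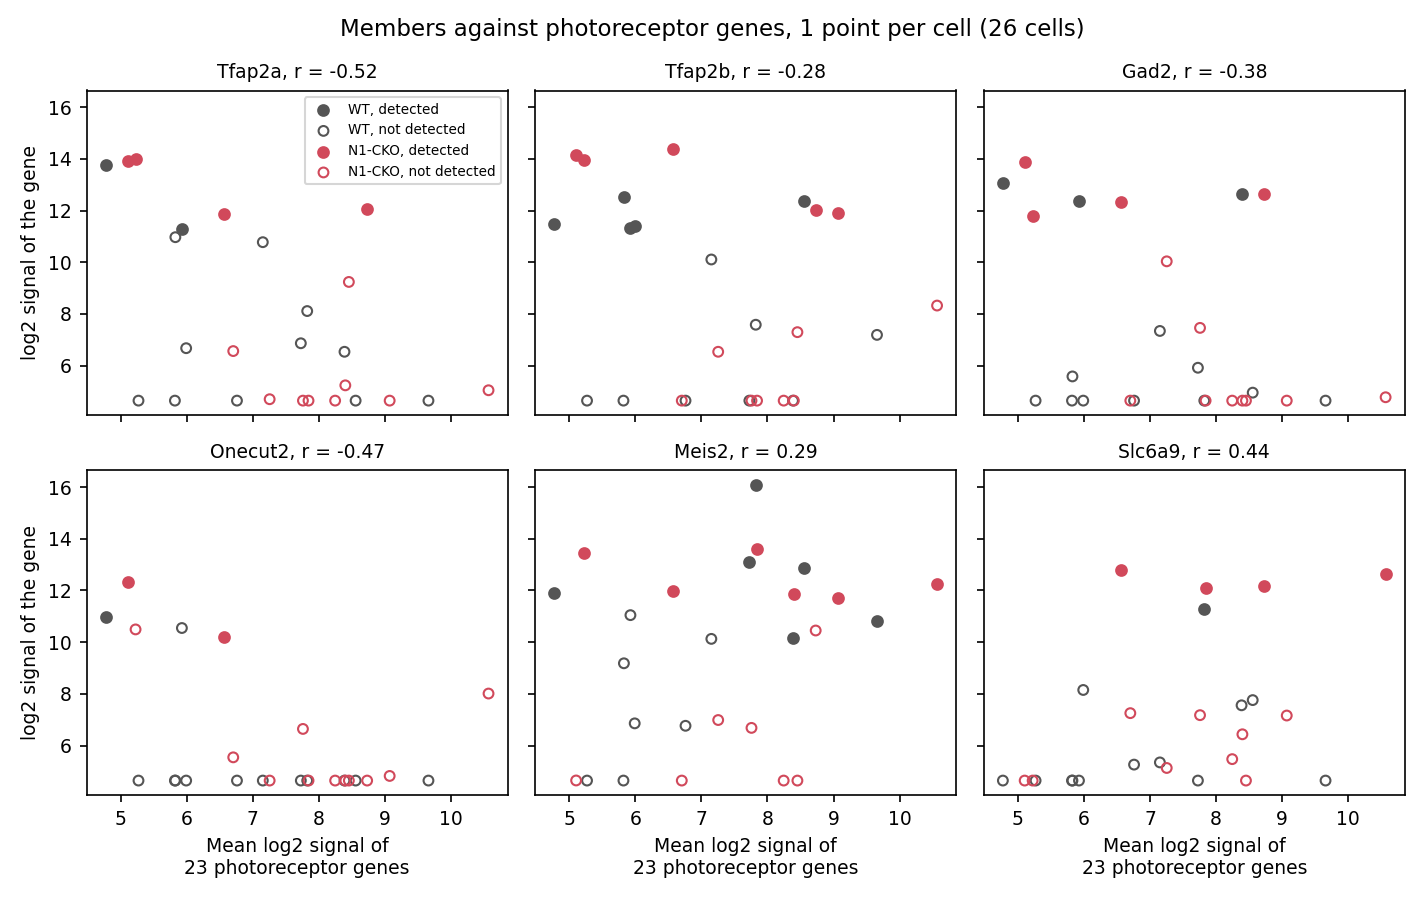
Log2 signal of 6 genes (vertical axes) against the mean log2 signal of 23 photoreceptor genes in the same cell (horizontal axes), 1 point per cell, filled where the gene was detected. Tfap2a is brightest in cells at the low end of the photoreceptor axis, with N1-CKO cell 2 as the exception at 8.73, and Slc6a9 is detected only at 6.57 and above.

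Between the groups the mean signals of the 9 genes differed by less than a limit of 2 on the log2 scale with the floor used here, and the groups overlapped for each. Of the 7 genes detected in at least 2 cells, 6 had higher and 1 lower means in N1-CKO cells, where 48.5% of all 8280 such genes were higher, and their median difference was 0.85 against -0.04 for all. Past the limit, 0 of the 7 were higher and 0 lower, against 4.75% and 6.92% of all genes, and 5 of the 7 were detected in more N1-CKO than WT cells, against 39.2%. Without the floor, Onecut2 (2.47), Slc6a9 (2.40) and Prox1 (2.13) were past the limit. With the floor, Slc6a9 had the largest difference, a log2 mean of 5.99 ± 2.08 in WT against 7.87 ± 3.31 (SD, 13 cells each) in the N1-CKO group. That is 1.88 higher, with 1 and 4 detected cells. Prox1 differed by 1.57 (0 and 2 cells), Onecut2 by 1.02 (1 and 2), Gad2 by 0.85 (3 and 4), Tfap2b by 0.36 (5 and 5), Tfap2a by 0.23 (2 and 4) and Meis2 by -0.81 (6 and 6). Averaged over all probe sets of a gene, the differences fell to 0.64 for Slc6a9, 0.29 for Prox1 and 0.43 for Onecut2, and the second Slc6a9 probe set and a further Prox1 one had lower means in N1-CKO cells (-0.59 and -0.72). On the main probe sets, each difference was smaller than the SD over cells in both groups, except that of Prox1, for which the WT SD was 1.31 and the N1-CKO SD 2.85. Over the 19 cells with a Gapdh ratio of 3 or less, Slc6a9 differed by 3.21, past the limit, and Meis2 by 0.44. In the high and low 18S sets the differences were 1.58 and 2.06 for Slc6a9, 2.22 and 0.28 for Onecut2, -2.49 and 0.23 for Meis2, and 0.90 and -0.18 for Tfap2a. The sign also turned when 1 cell was left out, for Tfap2a without N1-CKO cell 2 (-0.12), 11 (-0.11), 12 (-0.28) or 13 (-0.28) and, by less than 0.01, without WT cell 2, 3, 5, 10 or 11, and for Tfap2b without N1-CKO cell 11 (-0.13), 12 (-0.09) or 13 (-0.10). When group medians replaced group means, the sign turned for 4 of the 7, Tfap2a (-1.44), Tfap2b (-0.29), Gad2 (-0.18) and Meis2 (0.29), and Slc6a9 passed the limit (2.52). Cell cycle genes moved with the groups, with a median of 10 of 14 detected in WT and 2 in N1-CKO cells, as did photoreceptor genes, with 2 and 7 of 23, and their part in these differences was not tested.

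**Figure D4:**
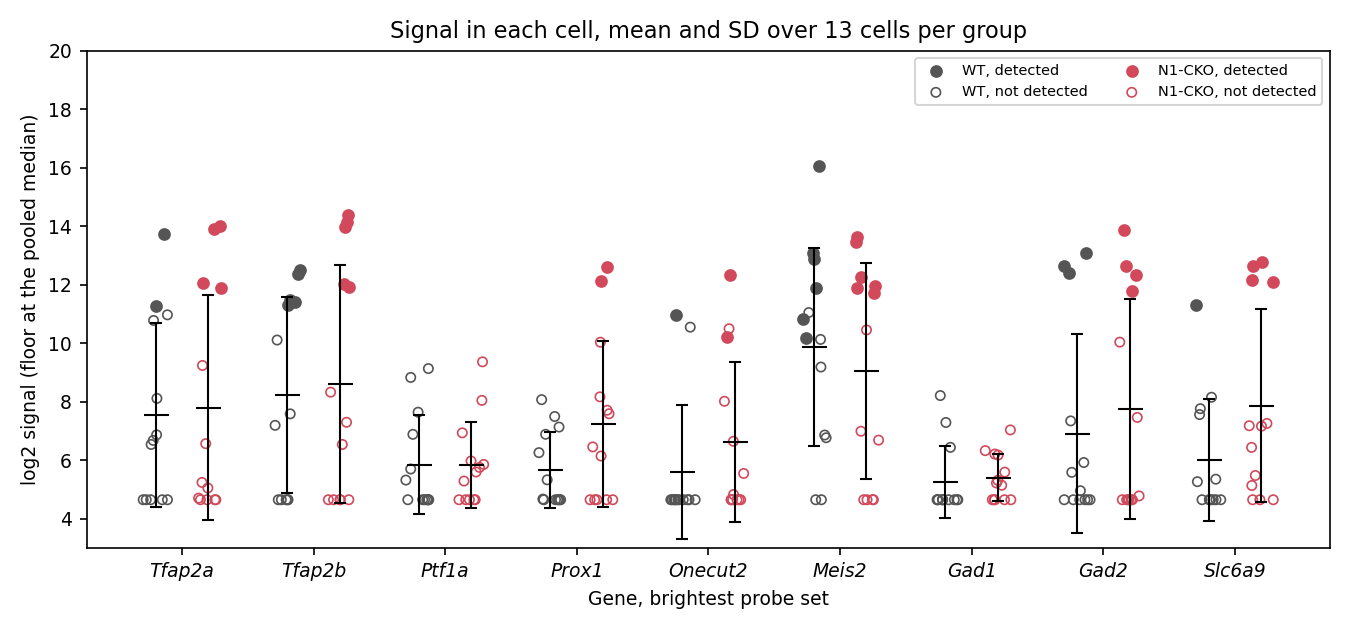
Log2 signal of the brightest probe set of each of the 9 genes in every cell, WT in grey and N1-CKO in red, filled where detected. Bars give the mean and SD over 13 cells. The groups overlap for all 9 genes, with Slc6a9 detected in 1 WT and 4 N1-CKO cells.

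Further genes of amacrine and horizontal cells overlapped the cells with AP-2 genes to differing degrees. An AP-2 gene was detected in 10 of 26 cells (38.5%). For the overlaps below, the share of equally often detected genes with as much overlap was not computed. Of 33 such genes measured, 18 were detected in at least 1 cell, where 58.1% of all genes were, with a median of 4 per cell (1 to 7), and the cells with 3 or more of the 9 genes had 4 to 7 (median 5.5) where those with 0 had 1 to 6 (median 4). Nhlh2, a neuronal basic helix-loop-helix gene, was detected in 7 cells, all of them with Tfap2b: WT cells 1 (5561), 7 (6074) and 10 (3105) and N1-CKO cells 2 (5410), 11 (17781), 12 (2236) and 13 (5914). Barhl2, a homeobox gene of amacrine subtypes, was detected in 6 cells, 5 with an AP-2 gene (WT cells 1, 7 and 10, N1-CKO cells 2 and 12) and WT cell 13. Lhx9 was detected in WT cell 7 and N1-CKO cell 13, and Neurod2, of some amacrine cells, in N1-CKO cells 11 and 13. Elavl3, a general neuronal RNA-binding protein gene, was detected in 11 cells, 5 of them among the 6 with Tfap2a, all but WT cell 1. Ebf3 was found in N1-CKO cells 2, 11 and 13 as well as in 3 cells without an AP-2 gene, Lamp5 in N1-CKO cell 2 and 2 cells without an AP-2 gene, and C1ql1 in N1-CKO cell 12 alone. Calb2, the calretinin gene, was found in N1-CKO cell 13 and 3 WT cells, Dkk3 in 3 of the 6 cells and 12 others, and Pax6 in all 6 and 13 others. An AP-2 gene was found in 5 of 11 cells with Elavl3 and 3 of 6 with Ebf3. For Dkk3 and Pax6 the counts were 6 of 15 and 9 of 19.

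Other genes of the list were found elsewhere or not at all. Foxn4, which makes progenitors competent for these fates, was detected in 8 cells, 2 with an AP-2 gene (WT cells 8 and 10) and 0 with Gad2. Nrxn2 was detected in 4 cells, Stx1a in 2 and Isl1 and Tfap2c in 1 each, 0 of them with Tfap2a or Tfap2b. Slc32a1, the vesicular transporter of GABA and glycine, was detected in WT cell 9 (513) and N1-CKO cell 9 (1043), neither of which carried Gad2 on its main probe set, though the other Gad2 probe set read 491 in WT cell 9, above the line of 414. The horizontal cell genes Onecut1 and Calb1, the glycine transporter Slc6a5, and Th, Chat and Slc18a3 of dopamine- and acetylcholine-releasing cells were detected in 0 cells, and Lhx1 in N1-CKO cell 3 alone. As a list, 9 of the 14 genes detected in at least 2 cells had higher means in N1-CKO cells, against 48.5% of all genes, with a median of 0.38 against -0.04. Past the limit of 2 were 0, against 4.75% higher and 6.92% lower of all genes.

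Genes of other retinal cells varied among the 6 cells with Tfap2a. Of 14 cell cycle genes, WT cell 1 had 9 detected and N1-CKO cell 2 had 10, WT cell 7 and N1-CKO cell 11 had 5 each, N1-CKO cell 12 had 2 and N1-CKO cell 13 had 0, beside a median of 5.5 over all cells. Of 13 progenitor genes they had 10, 8, 5, 6, 5 and 1 in that order, beside a median of 7.5. Of 7 Muller glia genes they had 1, 3, 1, 3, 2 and 1, beside a median of 2. Glul of that list was detected in 21 of 26 cells, among them all 6 and all 10 with an AP-2 gene. Slc1a3 was detected in 5 cells, 3 of them among the 6, and Rlbp1 in 13, 2 of them among the 6. Of 8 bipolar genes, Neurod4 was detected in 18 cells, of which 1, WT cell 1, was among the 6. The retinal ganglion cell genes Pou4f3, Sncg, Rbpms, Thy1 and Slc17a6 were detected in 0 cells, and each of the 6 cells had at most 1 of 10 ganglion cell genes. Of the same list, Gap43 was detected in 6 cells, 4 with an AP-2 gene, Nefm in 4, 3 with one, and Nefl in 2, 1 with one. Pou4f1 and Atoh7 were detected in 1 cell each, 0 with an AP-2 gene. Nefl was found in N1-CKO cell 2, Gap43 in N1-CKO cell 11 and Nefm in N1-CKO cell 13. The proliferation gene Mki67 was detected in 7 of the 10 cells with an AP-2 gene, 4 of 5 WT and 3 of 5 N1-CKO, and in 15 of all 26. Notch1 was detected in 5 of these 10 cells.

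The genes whose log2 signals over the 26 cells were most like the mean of the 9 genes, among 6125 ranked, were Rasgef1b, a Ras-family exchange factor gene (r = 0.87), Nhlh2 (0.83), the zinc-finger gene St18 (0.80), the adhesion gene Cadm4 (0.78), the axon guidance receptor gene Robo3 (0.78), the growth cone gene Crmp1 (0.77), the extracellular matrix gene Ncan (0.75) and the kinase gene Mast1 (0.75). Rasgef1b was detected in exactly the 6 cells with at least 3 of the 9 genes. For Tfap2a alone the closest were Runx1t1 (0.84), Mast1 (0.79) and St18 (0.78), and for Tfap2b Nhlh2 (0.81), Cadm4 (0.79) and the presynaptic adhesion gene Nrxn3 (0.74). For Gad2 they were the vesicle trafficking gene Nsg2 (0.83), Runx1t1 (0.82) and Zcchc18 (0.79). Slc6a9 had weaker neighbours, the synaptic vesicle gene Sv2b (0.64), Zfp329 (0.64) and Med27 (0.62), and Meis2 had Unc45a (0.77), Otud6b (0.73) and U2af1l4 (0.71). These genes were ranked on the same 26 cells, and the correlations are descriptions only.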

How the data were processed

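Amplification of each cell's cDNA started from oligo dT primers, so signals lie near transcripts' 3' ends. The authors deposited linear intensity values, and the submitters' processing notes name MAS5. Its version and settings are not given here. With 2% trimmed at both ends, each array averaged 500.0, so RNA content per cell is lost. Signals were floored at the pooled median, 25.02, before log2 was taken. GEO's platform annotation gave 1 symbol for 34945 probe sets that are not controls, and symbols were looked up in RefSeq's GRCm38.p6 gene table. A gene was represented by its brightest probe set, by mean log2 signal. Arrays were split at the largest gap in 18S RNA signal, into 10 high and 16 low. Functions were tested on simulated data (Python 3.11.15, pandas 2.3.3, scipy 1.17.1). The 9 genes and all lists were chosen with earlier results of these data known. The rule for naming other genes allowed, from each list, up to 6 with the most detected cells, and photoreceptor genes detected in at least 4 cells. It also allowed further amacrine and horizontal genes detected in cells with at least 3 of the 9. The 3 genes (8 for the mean of the 9) with the highest Pearson r were allowed too. Not every allowed gene is named, and Ccnd1, Six6, Lhx2, Rax, Sox2, Rrm1, Pcna, Top2a, Hes6 and Btg2 are among those left out. Lhx1, Slc32a1, Nrxn2, Stx1a, Isl1, Tfap2c and genes detected in 0 cells fall outside the rule and were named after their values were seen. Intervals cover counting error only, and the number of arrays limits precision.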

Additional observations from a re-analysis of the deposited data

How the results depend on the processing

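No paired analysis was possible because the results come from no test and cell numbers name cells, not animals. The count of cells with at least 2 of the 9 genes was 12 in the report. It was 7 with detection at the 95th percentile, 5 on high 18S arrays, 7 on low 18S arrays and 6 without Meis2, an alternative added after seeing the data. Cells with a transcription factor and a transmitter gene numbered 10, and 5 at the 95th percentile, 3 on high 18S arrays and 6 without Meis2. Cells with Tfap2a, Tfap2b and Gad2 numbered 6, and 1 at the 95th percentile, 1 on high 18S arrays and 3 where the Gapdh ratio was 3 or less. The 18S and Gapdh settings use fewer cells and a higher percentile passes fewer genes by construction. The 85th percentile, 1 common signal and all probe sets kept these 3 counts within 1.5 times. The correlation of the mean of the 9 genes with the mean of photoreceptor genes, -0.20, turned to 0.090 where the Gapdh ratio was 3 or less and lay between -0.30 and -0.10 when any 1 cell was removed. The median difference of 0.85 lay between 0.34 and 1.36 on such removal and was 0.18 with group medians, 0.36 with all probe sets, 0.25 and 1.31 on low and high 18S arrays and 0.44 where the Gapdh ratio was 3 or less. At least 1 other probe set followed the main one poorly (r of 0.40 or less) for Tfap2a, Tfap2b, Prox1, Onecut2, Meis2, Gad1 and Gad2, and signals near an array's detection line decide some counts.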
